A study of Gallus gallus with 4 samples.

Results

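Retinoids reach a cell as retinol, are carried in and between cells by small binding proteins, and are interconverted by dehydrogenases, and this report describes 7 genes of that handling in sorted chick retinal cells. The genes are RBP4B, RBP3, RLBP1, CRABP1, CRABP2, STRA6 and RDH12, which were given by name and matched on the gene column of the deposited transcript table. All 7 were found among the 18300 genes named there. They are carried by 9 transcripts, 3 of STRA6 and 1 of each other gene. The transcript called RDH12 in the deposited table carries the symbol RDH11 in the newer RefSeq gene table, and the transcript called RBP4B carries the symbol RBP4 there, with RBP4B as an older name. The names of the deposited table are kept, with this limit on the identity of RDH12.

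The cells came from chick retinal explants of embryonic day 5 that were electroporated with a pair of plasmids and cultured for about 20 hours. The plasmid ThrbCRM1-GFP reports on ThrbCRM1, an element that regulates THRB, a thyroid hormone receptor gene, and the plasmid UbiqC-Tdt marks electroporated cells with TdTomato. All libraries therefore come from cultured cells of explants that received both plasmids, and all were sorted as positive for TdTomato. The ThrbCRM1 group was sorted as positive for GFP and TdTomato and stands for cells in which the element was active, and the UbiqC group was sorted as positive for TdTomato alone. Both gates hold whatever cells the plasmids marked, so neither is a single cell type, and in such bulk RNA fewer cells of a type and less RNA per cell cannot be told apart. Each group had 2 polyA RNA libraries, A and B, with totals between 15673010 and 31659766 estimated counts. Whether the letters stand for separate cultures is not in the labels, and the p-values then reflect only how far these libraries differ, a spread that may be technical. EGFP, in TPM (the level per transcript as kallisto gives it, scaled by transcript length and library total), was 9805 and 15147 in the ThrbCRM1 libraries A and B and 150 and 156 in the UbiqC libraries. Of the 26 photoreceptor genes measured, the summed level was 4214 and 4897 TPM in ThrbCRM1 A and B, against 131 and 134.5 TPM in UbiqC. Much of the ThrbCRM1 sum came from RXRG (A 1380, B 1630 TPM). The list includes THRB, the gene that the sorting element regulates. THRB had 309 (A) and 419 (B) TPM in ThrbCRM1, and 6.81 (A) and 7.94 (B) TPM in UbiqC.

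As background, vertebrate photoreceptors detect light through a vitamin A aldehyde bound to opsin, and the spent chromophore is passed between photoreceptors, Müller glia and the pigment epithelium for renewal. The secreted RBP4 proteins carry retinol outside cells, RBP3 shuttles retinoids through the space around photoreceptors, STRA6 takes retinol up from RBP4 at the cell surface, and RLBP1 holds retinoids inside glia and pigment epithelium. CRABP1 and CRABP2 bind retinoic acid, the signalling form of vitamin A, in the cytoplasm, and in mammals CRABP2 can deliver it to nuclear receptors.

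The study set cells with an active ThrbCRM1 element against the other electroporated cells. Of the 7 genes, RBP4B and RBP3 were higher in ThrbCRM1 and the other 5 were lower. All 7 passed edgeR's quasi-likelihood test at a Benjamini-Hochberg adjusted p of 0.05, where 40.8% of the 16778 tested genes did. In each direction separately, 19.9% of all tested genes were called higher and 20.9% lower. The ThrbCRM1 and UbiqC libraries did not overlap in TPM for any of the 7 genes, as was so for 71.9% of tested genes. The 7 genes were chosen with earlier results of these data known, so these counts are given as a description. The median log2 fold change of the 7 genes was -0.98, beside a median of -0.01 over all tested genes. The call rate over all genes depends on the number of libraries: 6838 genes were called with all 4, and fewer in the fits with any 1 of them left out. All 7 genes kept their call in each of these fits. In the authors' deposited table, all 7 genes have a q-value below 0.05, where 39.9% of its genes do.

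**Figure D1:**
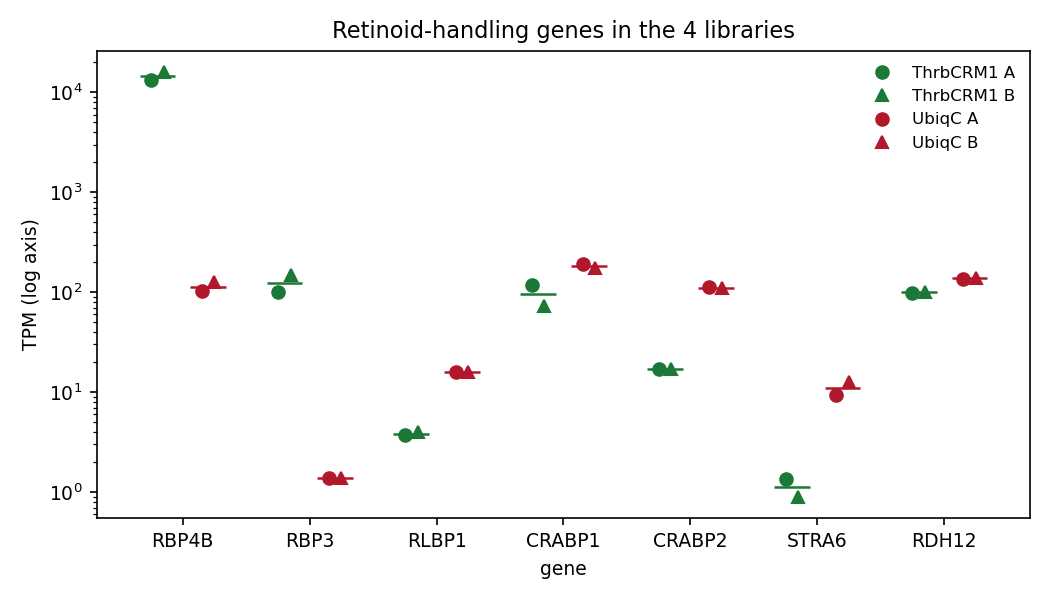
TPM of the 7 genes in each library on a log axis. Circles are libraries A, triangles are libraries B, green is ThrbCRM1, red is UbiqC, and each line is the mean of 2 libraries. RBP4B stands at 13285 and 16012 TPM in the ThrbCRM1 libraries and at 102 and 126 TPM in those of UbiqC.

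RBP4B, a gene for a secreted retinol-binding protein, showed the greatest difference of the 7. Its TPM was 13285 in library A and 16012 in library B of ThrbCRM1, and 102 and 126 in the UbiqC libraries. Both ThrbCRM1 libraries were thus far above both UbiqC libraries, and the libraries of a group lay close together. The estimated counts behind these levels were 152069, 95455, 639 and 1526, so counting error was small even in UbiqC. The log2 fold change was 6.94 ± 0.16 (SE; edgeR adjusted p = 1.4e-05), a 123-fold difference. By fold change RBP4B was number 19 among the increases of all tested genes.

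By level, RBP4B was the most abundant of all named genes in both ThrbCRM1 libraries. It alone made up 1.33% of all TPM in ThrbCRM1 A and 1.60% in ThrbCRM1 B. The next gene, STMN1, which encodes a microtubule-destabilising protein of young neurons, stood at 6245 and 5995 TPM there. In UbiqC the most abundant gene was FABP7, a fatty acid-binding protein gene of progenitors and glia, at 15656 and 15455 TPM, and RBP4B was number 1573 in UbiqC A and number 1268 in UbiqC B. RBP4B also held 97.5% and 97.9% of the summed TPM of the 7 genes in ThrbCRM1 A and B, but 18.0% and 21.6% in UbiqC A and B.

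The low level of RBP4B in UbiqC can be set beside that of the reporter. RBP4B in UbiqC stood at 0.769% of its ThrbCRM1 level for letter A and at 0.784% for letter B. EGFP in UbiqC stood at 1.53% and 1.03% of its ThrbCRM1 level. Paired by letter, the share of RBP4B was thus below that of EGFP, though the letters are not said to mark a shared culture. For RCVRN, the gene of the photoreceptor calcium sensor recoverin, the shares were 1.11% and 1.10%. For RBP3 they were 1.38% and 0.933%. For THRB they were 2.20% and 1.89%, above those of EGFP. The part of GFP-positive cells or their RNA in the UbiqC levels was not tested.

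RBP3 encodes the interphotoreceptor retinoid-binding protein, a matrix protein made by photoreceptors. It was measured at 99.9 and 149 TPM in the ThrbCRM1 libraries (A, B) and at 1.38 and 1.39 TPM in those of UbiqC. The ThrbCRM1 libraries were both far above UbiqC but differed 1.49-fold from each other, the B library being higher. EGFP was 1.54-fold higher in ThrbCRM1 B than in A as well, RBP4B 1.21-fold and RCVRN 1.01-fold. The level of TdTomato, on which all libraries were sorted, was 3547 TPM in ThrbCRM1 A against 14505 TPM in ThrbCRM1 B, and 2124 TPM in UbiqC A against 5637 TPM in UbiqC B. It was thus higher in B than in A in both groups, 4.09-fold and 2.65-fold. The part of reporter strength in the spread of RBP3 was not tested. The log2 fold change of RBP3 was 6.43 ± 0.27 (SE; edgeR adjusted p = 2.4e-05), or 86.1-fold. On the log2(TPM + 1) scale in limma it was 5.69, since the added 1 TPM is close to the UbiqC level of the gene. In UbiqC the gene rested on 44 and 86 estimated counts, in ThrbCRM1 on 5824 and 4510. In UbiqC it was number 13476 and 13540 by level, and in ThrbCRM1 number 1698 and 990.

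**Figure D2:**
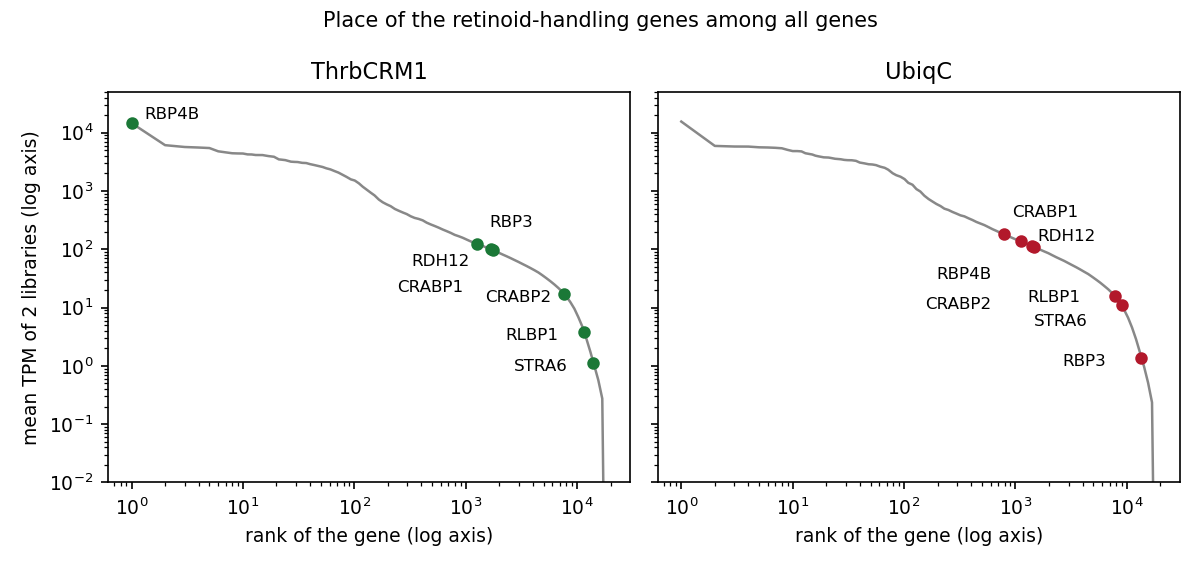
Mean TPM of 2 libraries against the rank of each gene by that mean, both on log axes, for ThrbCRM1 on the left and UbiqC on the right. The grey line follows all genes with a level above 0 and the dots are the 7 genes. RBP4B is the first gene in ThrbCRM1, and RBP3 is the lowest of the 7 in UbiqC, where its mean is 1.39 TPM.

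Both retinoic acid-binding protein genes fell in ThrbCRM1, to different extents. CRABP2 stood at 17.2 TPM in both ThrbCRM1 libraries and at 112 and 111 TPM in those of UbiqC. Within each group its libraries were almost equal, and the groups were far apart. The log2 fold change was -2.76 ± 0.09 (SE; edgeR adjusted p = 1.6e-05), which is 6.77-fold higher in UbiqC. CRABP1 stood at 118 and 73.2 TPM in the ThrbCRM1 libraries (A, B) and at 190 and 175 TPM in those of UbiqC. Its ThrbCRM1 libraries spread widely, with A nearer to UbiqC than B, but neither reached the UbiqC range.

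For CRABP1 the log2 fold change was -0.98 ± 0.20 (SE; edgeR adjusted p = 0.0105), 1.97-fold higher in UbiqC. Without ThrbCRM1 A it was -1.35 and without ThrbCRM1 B it was -0.70, and it passed in both fits. When each transcript was tested on its own, which for CRABP1 means the same counts among many more features, the change of -1.01 did not pass (edgeR adjusted p = 0.136). As a result of the unequal falls, CRABP1 exceeded CRABP2 6.89-fold and 4.25-fold in TPM in ThrbCRM1 A and B, and 1.70-fold and 1.57-fold in UbiqC A and B. The groups did not overlap in this ratio. With 2 libraries against 2, an exact two-sided permutation test cannot give a p below 0.333, so the ratio is given as a description.

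STRA6, the gene of the membrane receptor that takes up retinol from RBP4, had the greatest fall. It was measured at 1.36 and 0.901 TPM in the ThrbCRM1 libraries (A, B) and at 9.27 and 12.5 TPM in those of UbiqC. All libraries were low, and both UbiqC libraries stood clearly above both ThrbCRM1 libraries. The log2 fold change was -3.31 ± 0.25 (SE; edgeR adjusted p = 0.00019), 9.89-fold higher in UbiqC, which placed STRA6 at number 108 among the decreases of all tested genes. In limma on log2(TPM + 1) it was -2.48, the pseudocount being close to the ThrbCRM1 level. The gene's ThrbCRM1 values rest on 58 and 20 estimated counts.

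STRA6 has 3 transcripts in the tables, and the transcript NM_001293202.1 of 2762 bases carried most of the signal. It made up all of the STRA6 level in both ThrbCRM1 libraries, 87.5% in UbiqC A and 95.9% in UbiqC B. The longer transcripts XM_004943696.2 and XM_004943697.2 were listed at 0 in both ThrbCRM1 libraries. In UbiqC A and B they had 20.9 and 18.3 estimated counts for the first and 10.9 and 9.48 for the second. In ThrbCRM1 A and B the whole gene had only 58 and 20 counts. Such small shares could go undetected there, so no difference in transcript use can be read from them. The main transcript passed the test across all transcripts (log2 fold change -3.23, edgeR adjusted p = 0.0444). In all, 6 of the 9 transcripts passed there, against 6.01% of the 32759 transcripts tested, and they were the single transcripts of RBP4B, RBP3, RLBP1, CRABP2 and RDH12 besides that of STRA6. Of the other 3, XM_004943697.2 was removed by the filter on low counts, and XM_004943696.2 did not pass (adjusted p = 0.104). These transcript calls depend on the test and the filter, also with all 4 libraries. With the letters as a replicate block edgeR called 0 of the 9, though 7 had an unadjusted edgeR p below 0.05. DESeq2 called 8.

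RLBP1 encodes cellular retinaldehyde-binding protein, known from Müller glia and pigment epithelium. It stood at 3.73 and 3.97 TPM in the ThrbCRM1 libraries (A, B) and at 15.9 and 16.1 TPM in those of UbiqC. The gene was low in all libraries, with little spread within a group and a clear gap between groups. Its log2 fold change was -2.12 ± 0.17 (SE; edgeR adjusted p = 0.000252), 4.35-fold higher in UbiqC.

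The listed glial and progenitor genes were lower in ThrbCRM1 beside RLBP1, STRA6 and the CRABP genes. Of 13 tested, 0 were called higher and 12 lower. The summed level of the list was 3480 to 3820 TPM in ThrbCRM1 and 22990 to 23490 TPM in UbiqC. Most of the UbiqC sum was FABP7 (A 15656, B 15455 TPM), followed by CA2. VIM, also of that list, fell less, from 946 (A) and 1014 (B) TPM in UbiqC to 685 (A) and 667 (B) TPM in ThrbCRM1. CA2, a carbonic anhydrase gene of that list, fell from 5582 ± 423 to 493 ± 36.2 TPM (SD, n = 2; edgeR log2 fold change -3.56). The listed pigment epithelium genes were low in both groups, with a sum of 20.5 to 20.9 TPM in ThrbCRM1 and 24.1 to 25.2 TPM in UbiqC. Of 10 tested 2 were higher and 2 lower, beside 19.9% and 20.9% of all tested genes. RPE65, the isomerase that defines pigment epithelium, lay between 0.558 and 1.04 TPM in the 4 libraries. TYRP1, a pigment enzyme gene, was called higher in ThrbCRM1, at 1.47 and 1.29 TPM, against 0 and 0.189 TPM in UbiqC A and B. MITF, a transcription factor of pigment cells, fell from 13.7 ± 0.629 to 5.64 ± 0.570 TPM, and DCT, a pigment enzyme gene, rose from 3.43 ± 0.0204 to 6.95 ± 0.849 TPM. The part of these cell types in the falls of RLBP1 and STRA6 was not tested.

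RDH12, a retinal and retinol dehydrogenase gene by the deposited name, showed the smallest difference of the 7. It stood at 99.0 and 101.6 TPM in the ThrbCRM1 libraries (A, B) and at 135 and 139 TPM in those of UbiqC. The spread within each group was under 3 TPM in SD, and the gap between groups exceeded it. Its log2 fold change was -0.52 ± 0.07 (SE; edgeR adjusted p = 0.00163), 1.43-fold higher in UbiqC. RDH11, the symbol of the same transcript in the newer RefSeq table, belongs to a closely related dehydrogenase of wider expression in mammals, so these values do not describe a photoreceptor enzyme with certainty.

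Ordered by mean TPM in ThrbCRM1, the genes ran from RBP4B (14648 ± 1928, SD, n = 2) over RBP3 (124 ± 34.6), RDH12 (100.3 ± 1.85), CRABP1 (95.9 ± 32.0), CRABP2 (17.2 ± 0.0131) and RLBP1 (3.85 ± 0.167) to STRA6 (1.13 ± 0.323). RBP3, RDH12 and CRABP1 overlapped in that group, and the other neighbours did not. In UbiqC the order by mean TPM was CRABP1 (182 ± 11.1), RDH12 (137 ± 2.65), RBP4B (114 ± 16.6), CRABP2 (111 ± 0.748), RLBP1 (16.0 ± 0.0941), STRA6 (10.9 ± 2.29) and RBP3 (1.39 ± 0.0051). There RBP4B and CRABP2 overlapped. The group with the higher level of RBP4B thus had the lower level of STRA6, which was low in both groups. Whether STRA6 takes up retinol from the RBP4B protein was not tested.

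Other genes of retinoid handling came from a list of 40 symbols, of which 24 were matched and 21 tested. Of these 21 genes, 5 were called higher, 6 lower, and 10 did not pass. Their median log2 fold change was 0.01. Over all tested genes 19.9% were called higher and 20.9% lower, so the counts are given as a description. Among genes of retinoid transport and storage, RBP5, a cellular retinol-binding protein gene, fell from 87.3 ± 2.85 to 59.2 ± 0.177 TPM (edgeR log2 fold change -0.62 ± 0.10). ABCA4, which encodes the photoreceptor transporter that clears retinal, rose from 1.73 ± 0.0262 to 6.07 ± 0.529 TPM (log2 fold change 1.72 ± 0.14). LRP2, an endocytic receptor gene, was called higher by 0.48 ± 0.13. FABP5, a gene for a fatty acid-binding protein that can also bind retinoic acid, stood at 175 and 94.8 TPM in the ThrbCRM1 libraries and 111 and 84.9 TPM in those of UbiqC, and the groups overlapped (edgeR log2 fold change 0.41 ± 0.28, adjusted p = 0.288).

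The genes of the enzymes that interconvert retinol and retinal moved in both directions. RDH10, which oxidises retinol on the way to retinoic acid, fell from 47.6 ± 5.66 to 12.9 ± 0.0057 TPM (SD, n = 2; edgeR log2 fold change -1.95 ± 0.10, adjusted p = 5.6e-05). DHRS3, which reduces retinal back to retinol, rose from 12.7 ± 2.20 to 41.9 ± 9.69 TPM (1.67 ± 0.21, adjusted p = 0.00136). In each library of UbiqC the level of RDH10 thus exceeded that of DHRS3, and in each library of ThrbCRM1 the reverse held. These levels are sums over all transcripts of a gene. A DHRS3 transcript with the RefSeq prefix of non-coding models (XR) made up 50.5% and 59.1% of the gene's TPM in ThrbCRM1 A and B. In UbiqC A and B its share was 44.8% and 47.8%. RDH5, a dehydrogenase gene known from pigment epithelium, rose by 1.10 ± 0.17. DHRS9 (-1.74 ± 0.17), DHRS7 (-0.62 ± 0.09) and DHRS4 (-0.60 ± 0.08), genes of related short-chain dehydrogenases, fell. The transcript called DHRS9 in the deposited table carries the symbol LOC121106449 in the newer RefSeq table, so its identity is uncertain. ADH5, an alcohol dehydrogenase gene that the newer RefSeq table calls ADH4, was called higher by 0.25 ± 0.06, and BCO2, a carotenoid-cleaving enzyme gene, was called lower (-0.75 ± 0.14).

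RPE65 and LRAT, genes of the pigment epithelium branch of the visual cycle, were low in both groups and did not pass the test. RPE65 had a mean of 0.806 ± 0.0936 TPM in ThrbCRM1 and 0.801 ± 0.344 TPM in UbiqC, and LRAT, which stores retinol as esters, 0.933 ± 0.0975 and 0.873 ± 0.209 TPM. RDH8, RDH14, RDH16, RETSAT, SDR16C5, SCARB1 and BCMO1 did not pass the test either, with adjusted p-values between 0.138 and 0.998. RBP7, RRH and ADH1C were removed by the filter on low counts. Calls for 4 genes changed with the setting or the library. LRP2 lost its call in 6 of 13 alternatives, which include leaving out ThrbCRM1 A, ThrbCRM1 B or UbiqC A. The log2 fold changes of LRP2 ran from 0.34 to 0.66 over all 13. ADH5 lost its call in 3 (without ThrbCRM1 A, ThrbCRM1 B or UbiqC B, 0.23 to 0.32 over all 13). BCO2 lost its call without ThrbCRM1 A (-0.67). FABP5 gained a call in 2 of the 13, which include leaving out ThrbCRM1 B (log2 fold change 0.76, edgeR adjusted p = 0.0313), and stood at -0.07 without ThrbCRM1 A (adjusted p = 0.816).

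**Figure D3:**
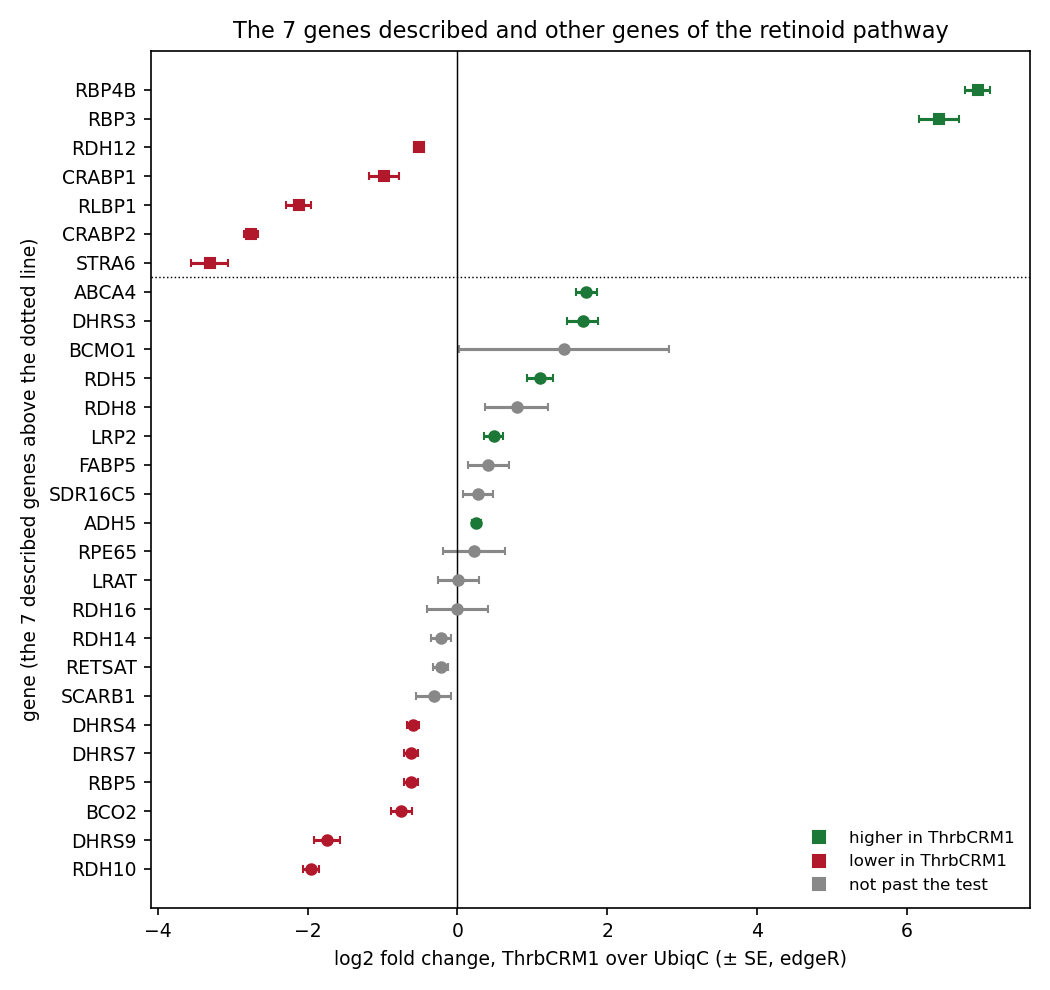
Log2 fold change of ThrbCRM1 over UbiqC with its standard error from edgeR, for the 7 genes (squares, above the dotted line) and the 21 other tested genes of retinoid handling (circles). Green is higher and red lower in ThrbCRM1 past the test, and grey did not pass. RBP4B and RBP3 stand alone above 6 on this scale, and RDH10 and DHRS3 lie on opposite sides of 0.

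Genes with the most similar pattern over the 4 libraries were sought for each of the 7, by the distance between log2 CPM values centred on their mean, among symbol-bearing genes with a mean of at least 10 CPM. With 4 libraries such likeness follows mainly the size of the group difference. RBP4B was closest to SAMD10 (distance 0.47, log2 fold change 6.81) and RP1 (0.60, 6.38), and RBP3 to RXRG (0.25, 6.32) and RCVRN (0.40, 6.44). RP1 encodes a photoreceptor axoneme protein and RXRG a nuclear receptor of cones. For the genes that fell, CRABP2 was closest to LAMA5 (0.11, -2.74) and AGXT2L2 (0.12, -2.67), STRA6 to NKAIN2 (0.20, -3.19) and GPR123 (0.21, -3.43), and RLBP1 to EFCC1 (0.07, -2.05) and ST3GAL1 (0.10, -2.15). CRABP1, with its spread in ThrbCRM1, was closest to PLEKHH1 (0.09, -0.93) and CBR4 (0.11, -0.89), which were also higher in ThrbCRM1 A than B. RDH12 was closest to RPSA, a ribosomal protein gene (0.01, -0.52), and COMMD1 (0.02, -0.53).

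Markers of other cells moved as well, beside 19.9% of all tested genes called higher and 20.9% called lower. Of 25 tested photoreceptor genes 16 were higher and 2 lower in ThrbCRM1, and RCVRN stood at 910 ± 5.17 TPM there (SD, n = 2) and at 10.1 ± 0.0462 TPM in UbiqC. The 13 horizontal and amacrine genes summed to 380 to 466 TPM in ThrbCRM1 and 60.0 to 73.4 TPM in UbiqC. Of these, 9 were higher, PTF1A by 5.13 and LHX1 by 3.58 (log2) among them. The 2 lower genes were PROX1 and ISL1. PROX1 had 3.94 (A) and 2.11 (B) TPM in ThrbCRM1, and 18.9 (A) and 24.0 (B) TPM in UbiqC. ISL1 had 4.35 (A) and 1.79 (B) TPM in ThrbCRM1, and 12.3 (A) and 10.4 (B) TPM in UbiqC. Of 14 ganglion cell genes 3 were higher: STMN2 by 1.75, NEFM by 1.19, and NEFL. The 5 lower ones were ISL1, RBPMS, RBPMS2, EBF3 and GAP43, and 6 did not pass. The list summed to 698 to 819 TPM in UbiqC and 1078 to 1305 TPM in ThrbCRM1. Much of the ThrbCRM1 sum came from STMN2 (A 557, B 504 TPM) and NEFL (A 273, B 235 TPM). GAP43 fell from 158 (A) and 133 (B) TPM in UbiqC to 69.5 (A) and 38.1 (B) TPM in ThrbCRM1. Lens genes summed to 50.1 to 67.7 TPM in ThrbCRM1 and 89.1 to 94.0 TPM in UbiqC. Of 8 tested, 4 were lower, CRYAB by -3.55 and ASL2 by -3.43 among them, and 2 were higher, CRYBA4 and BFSP1. Most of the ThrbCRM1 lens sum was CRYBA4 (A 49.6, B 34.0 TPM), which had 13.8 (A) and 10.9 (B) TPM in UbiqC. Endothelial and mesenchymal genes summed to 27.2 to 30.8 TPM in ThrbCRM1 and 90.6 to 114 TPM in UbiqC. Of 12 tested, 1 was higher, PDGFRA, and 8 were lower, KDR by -3.45 and TAGLN by -3.33 among them. PDGFRA had 9.23 (A) and 10.4 (B) TPM in ThrbCRM1, and 2.82 (A) and 2.89 (B) TPM in UbiqC. Most of the UbiqC sum was KDR (A 53.8, B 74.2 TPM). Only 3 of 16 listed blood and immune symbols were matched. Of these 3 genes 2 were higher, LMO2 by 2.37 and PTPRC by 1.04, and 1 was lower, TAL1. TAL1 had 0.893 (A) and 0.641 (B) TPM in UbiqC, and 0.066 (A) and 0.127 (B) TPM in ThrbCRM1. Their sum was 52.5 to 64.5 TPM in ThrbCRM1 and 12.9 to 13.6 TPM in UbiqC. Most of the ThrbCRM1 sum was LMO2 (A 59.9, B 47.6 TPM). The part of these cells in the levels of the 7 genes was not tested.

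The fold changes of the 7 genes were compared over 13 alternative tests, filters, scales and left-out libraries. Every gene kept its direction and its call in all 13. RBP4B ranged from 6.78 to 7.10, RBP3 from 5.69 to 6.71, RLBP1 from -2.18 to -1.81, CRABP1 from -1.35 to -0.70, CRABP2 from -2.78 to -2.63, STRA6 from -3.65 to -2.48 and RDH12 from -0.55 to -0.45 on the log2 scale. CRABP1 came nearest to the threshold, with an adjusted p of 0.0385 without UbiqC A. The authors' deposited table, whose natural log effects were turned into log2 and signed as ThrbCRM1 over UbiqC, gives 6.94 ± 0.20 (SE) for RBP4B, 6.37 ± 0.31 for RBP3, -3.36 ± 0.34 for STRA6, -2.77 ± 0.14 for CRABP2, -2.12 ± 0.23 for RLBP1, -1.04 ± 0.34 for CRABP1 and -0.53 ± 0.08 for RDH12. These come from the same 4 libraries, so they compare methods. In the authors' deposited table RBP4B is number 18 by p-value and CRABP1 number 5570.

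**Figure D4:**
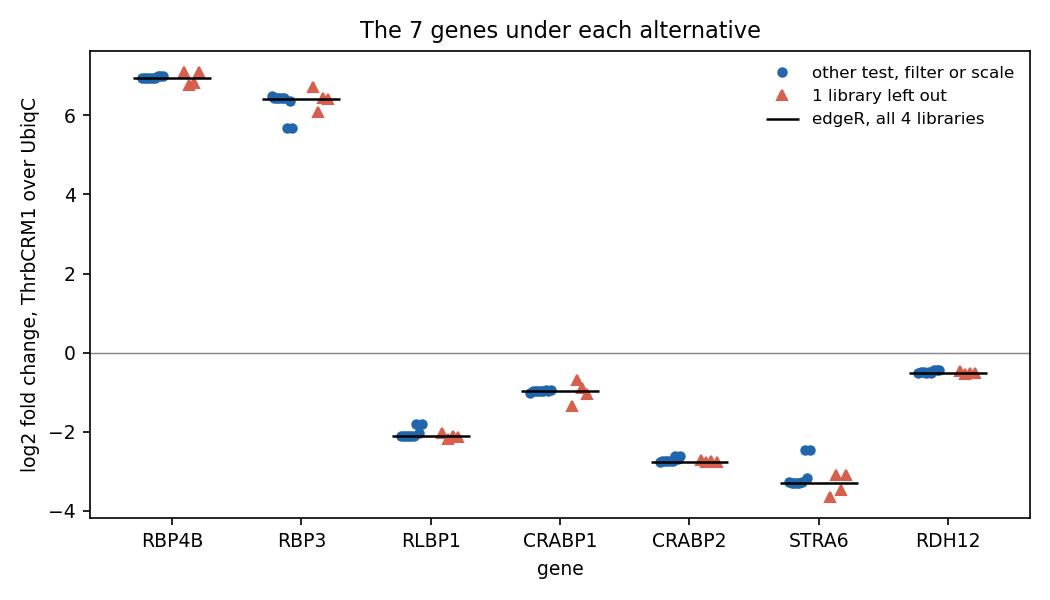
Log2 fold change of ThrbCRM1 over UbiqC for the 7 genes. The black line is edgeR with all 4 libraries, blue circles are the 9 other tests, filters or scales, and orange triangles are the 4 fits with 1 library left out. No point crosses 0, and CRABP1 and STRA6 move most among the genes that fell.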

How the data were processed

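PolyA RNA of 4 libraries was analysed, with groups and letters from the titles. Per the submitters' processing notes, the authors used kallisto, sleuth and galGal5. Tool versions are not given in the sources used here. Expected counts and TPM of each transcript, and lengths in bases (other values), were deposited as kallisto wrote them. The authors' sleuth table holds p-values, q-values and natural log effects. The authors' deposited transcript table gave the gene names, and its signal equals TPM times a factor of 0.967 to 1.0354 per library. It has 3 further value columns with no library name, which were not used.

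Estimated counts were summed by gene and rounded (18300 genes, EGFP and TdTomato left out). Genes were tested with edgeR 4.0.16 in R 4.3.3: TMM, filterByExpr with a minimum count of 10, quasi-likelihood F test, Benjamini-Hochberg adjustment over 16778 genes, 2 residual degrees of freedom, common biological coefficient of variation 10.6%. The standard error is the fold change divided by the root of F. A second fit took all transcripts. limma 3.58.1 on log2(TPM + 1) or log2(TPM + 0.1) and DESeq2 1.42.0 were alternatives. Genes that share sequence with relatives have uncertain estimated counts. Named by rule are the 7 genes, the other retinoid genes and the 2 most similar genes. Of each marker list, the 2 genes with the smallest p are named by that rule. Other marker genes were named outside the rule, after their values were seen. They are RPE65, TYRP1, THRB, VIM, PROX1, ISL1, NEFL, RBPMS, RBPMS2, EBF3, GAP43, CRYBA4, BFSP1, PDGFRA and TAL1. The genes and lists were chosen with earlier results of these data known. Names were checked against the RefSeq gene table (bGalGal1.mat.broiler.GRCg7b), for names alone. Listed symbols without a match are not analysed here, and 1 further retinoid gene is not reported here.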

Additional observations from a re-analysis of the deposited data

Results flagged for a closer look

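EGFP, which lies outside the gene comparison, averaged 12476 TPM in the ThrbCRM1 libraries, above its 150 and 156 TPM in UbiqC. A transcript of RBP4A, a close relative of RBP4B, has no gene name in the deposited table and was named through the RefSeq gene table. It averaged 0.652 TPM in ThrbCRM1, with 9 and 3 estimated counts in ThrbCRM1 A and B and 3 in each UbiqC library. By TPM it was higher in both ThrbCRM1 libraries than in both UbiqC libraries. These few counts do not show a difference, and the difference was not tested.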

How the results depend on the processing

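The 7 genes kept direction and call in all 91 fits of a gene under an alternative, and all 7 were called in each. The count of other retinoid genes called stayed within 1.5 times of 11. The count over all genes was 6838, ranged from 4474 to 6040 with 1 library left out, and was 8368 with the letter as a replicate block. The letters are not said to mark a shared culture, so the block is given as an alternative only. Across genes, the deviations of same-lettered libraries from their group means had a correlation r of 0.167. TdTomato was higher in B than in A in both groups, 4.09-fold in ThrbCRM1 and 2.65-fold in UbiqC. Whether same-lettered libraries share variation was not tested. Of the 9 transcripts, 6 passed edgeR's test; 0 did with the replicate block and 0 in the range of fits without 1 library (0 to 0). In those fits edgeR called 0 of all transcripts, 5822 to 7529 of which had an unadjusted p below 0.05 with a library left out and 7373 with the block. With no filter on low counts edgeR called 4 of the 9, and DESeq2 called 8 of the 9. Transcript results are therefore tied to the test and the filter, and the cause was not tested. No gene followed over the 13 alternatives reversed past a test. FABP5, not called with all 4 libraries (log2 fold change 0.41), was called with the replicate block (0.35, edgeR adjusted p = 0.0198) and without ThrbCRM1 B, and its adjusted p ranged from 0.0198 to 0.816 over the 13 alternatives. Low counts limit the transcripts of STRA6, which had 58 and 20 estimated counts in the ThrbCRM1 libraries.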
